A study of Schizosaccharomyces pombe with 12 samples.

Results

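The genes described here carry the clone names that mark the ends of chromosome II of the fission yeast Schizosaccharomyces pombe. They were taken from the gene count table by identifier: those that begin with SPBC1348, SPBPB8B6, SPBPB21E7, SPBPB10D8, SPBC359, SPBPB7E8, SPBPB2B2 or SPBCPT2R1, without ght7 and pfl7, members of the hexose transporter and flocculin-like families. This gave 68 genes of the 7268 features in the table, and all 68 were among the 6904 features that passed the filter on low counts. In the RefSeq annotation, 40 of them sat at the left end and 26 at the right end, and the first and the last feature of chromosome II in the table were among them. The remaining 2, SPBPB7E8.01 and SPBPB7E8.02, did not sit at an end: 523 features separated them from the first gene of the right end and 1890 from the last gene of the left end. Of the 68 genes, 60 were annotated as protein-coding and 8 as pseudogenes. RNA came from wild-type cells (WT), lsd1-ΔHMG cells and set1Δ cells, all sampled at 30°C and after culture at 37°C, in 2 libraries a condition. The lsd1-ΔHMG allele lacks the C-terminal part of the demethylase Lsd1 that holds its HMG domain, and the study describes its Lsd1 forms as carrying the FTP epitope tag, whereas set1Δ lacks the set1 gene. The study describes the replicates of a genotype as derived independently, and both mutants were compared with the same 2 WT libraries at a temperature.

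The ends of chromosomes carry telomeres, and the stretch next to a telomere is the subtelomere. In fission yeast the subtelomeres of chromosomes I and II share long, nearly identical sequences and are packed into heterochromatin, in which histone H3 is methylated at lysine 9 by Clr4, bound by Swi6 and deacetylated by Clr3. Set1 is the methyltransferase for lysine 4 of histone H3, a mark of active chromatin, and Lsd1 is a histone demethylase found in a complex with Lsd2, Phf1 and Phf2. The comparisons asked how RNA levels differed when either enzyme was altered and when the cells were warmed.

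Near-identical copies come first, because a read from a copied sequence has no unique origin. A copy was another gene with at least 95% identity over at least 50% of the gene. By this measure 34 of the 68 genes had a copy, of which 20 fell into 8 families within the 68 and 14 had copies only elsewhere. The other 34 had none. The most uniform family was a tandem row of 4 transporter genes, SPBPB10D8.04c to SPBPB10D8.07c, whose coding sequences of 1140 bases were the same. The first 120 coding bases are shown to make this plain, from the RefSeq assembly ASM294v3, with no capitals since no base differed:
SPBPB10D8.04c to SPBPB10D8.07c: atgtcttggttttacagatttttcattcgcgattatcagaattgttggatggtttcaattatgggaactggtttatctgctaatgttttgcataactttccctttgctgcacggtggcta
The ftm genes encode proteins with transmembrane helices. Over bases 75 to 194 of their coding sequences of 441 bases, ftm6 of the left end and ftm7 of the right end differed at 1 position, which is given in capitals:
ftm6: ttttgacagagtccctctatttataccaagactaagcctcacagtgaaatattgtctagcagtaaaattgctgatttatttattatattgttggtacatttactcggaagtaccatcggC
ftm7: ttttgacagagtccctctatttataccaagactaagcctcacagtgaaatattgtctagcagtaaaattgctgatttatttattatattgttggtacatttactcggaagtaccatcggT
The sequences of ftm2 and ftm3 of chromosome I were the same as that of ftm6 in this window. The L-asparaginase gene SPBPB8B6.05c of the left end and its relative SPAC977.12 on chromosome I were less alike, at 95.3% identity over 1246 bases. The 120 bases shown, bases 937 to 1056, were picked as a stretch where the pair differed most, at 12 positions, again in capitals:
SPBPB8B6.05c: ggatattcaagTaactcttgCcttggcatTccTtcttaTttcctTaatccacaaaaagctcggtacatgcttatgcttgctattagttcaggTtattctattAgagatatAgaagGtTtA
SPAC977.12: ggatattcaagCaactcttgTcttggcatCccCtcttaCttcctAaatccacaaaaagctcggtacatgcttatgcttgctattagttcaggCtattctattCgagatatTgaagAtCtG

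In each library the highest count among the 4 tandem transporters exceeded the lowest by a factor between 1.05 and 1.15, so their values are given together. Likewise ftm5 and SPBPB2B2.19c, which were 100% identical over 1292 bases, had counts at a ratio between 1.001 and 1.06. The study names a fraction option of the counting, but whether it split reads over equally good positions or over overlapping genes is not given in the sources used here, so the values of copied genes are uncertain as to which copy was transcribed. Of the 68 genes, 51 were overlapped by a gene on the other strand and 2 by a gene on the same strand. The libraries kept the strand, but whether the deposited counts used it is not given in the sources used here, and if they did not, reads of overlapping partners cannot be told apart. In bulk RNA, fewer cells with a transcript and less of it per cell cannot be told apart either.

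Library totals ran from 27642330 to 34843663 counts, and the lowest correlation between replicates was 0.9933. Levels are given as CPM, counts scaled to a common library size with TMM factors, which take out differences in RNA composition. The set1 transcript read 76.7 and 79.8 CPM in WT at 30°C against 14.4 and 14.3 CPM in set1Δ, and 105 and 95.6 against 15.7 and 16.2 CPM at 37°C. Counts per gene do not tell which part of lsd1 was read, so they do not check its truncation. The temperature labels were checked with 8 heat chaperone genes. At 37°C against 30°C, 5 of 8 were called higher in lsd1-ΔHMG and 7 of 8 in set1Δ, with none lower, but in WT 1 was higher and 4 were lower. The small heat shock gene hsp16 stood at 39422 and 36205 CPM in the WT libraries labelled 30°C and at 4533 and 5798 CPM in those labelled 37°C. The WT libraries thus went against their labels in these genes, and WT temperatures below are those of the labels. The comparisons of mutants with WT at 30°C rest on the WT libraries labelled 30°C, and those with WT at 37°C on the other pair. Those of WT between temperatures and of the interaction rest on both pairs. The comparisons of lsd1-ΔHMG with set1Δ and of each mutant between temperatures have no WT library on either side. WT enters them through the filter on low counts, the TMM factors and the estimate of spread, which all 12 libraries share.

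The genes together took a larger share of the RNA in WT at 30°C than in any other condition. They held 2.99% and 2.71% of all counts in the WT libraries at 30°C, 1.94% and 1.99% in set1Δ and 0.608% and 0.588% in lsd1-ΔHMG. At 37°C the shares were 0.857% and 0.833% in WT, 0.991% and 1.19% in set1Δ and 0.340% and 0.3898% in lsd1-ΔHMG, the lowest of the 6 conditions. A few genes made up much of this. Counts of mug14, a gene named for its rise in meiosis whose product is annotated as an adducin of the actin cytoskeleton, were 1.43% and 1.28% of all counts in WT at 30°C. In set1Δ at 30°C the 4 tandem transporters held 31.5% and 31.8% of the 68 genes' counts and SPBPB2B2.18, an uncharacterised gene, 30.4% and 30.9%. Per kilobase of gene, the highest level was that of mug14 in WT at 30°C, 12404 CPM per kb, of SPBPB2B2.18 in set1Δ at 30°C, 8168 CPM per kb, and of cmt2, a catechol O-methyltransferase gene, in lsd1-ΔHMG at 30°C, 1308 CPM per kb. The median level of the 68 was 55.6 CPM in WT, 19.5 CPM in lsd1-ΔHMG and 49.0 CPM in set1Δ at 30°C, and 27.2, 15.8 and 20.0 CPM at 37°C in the same order.

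**Figure D1:**
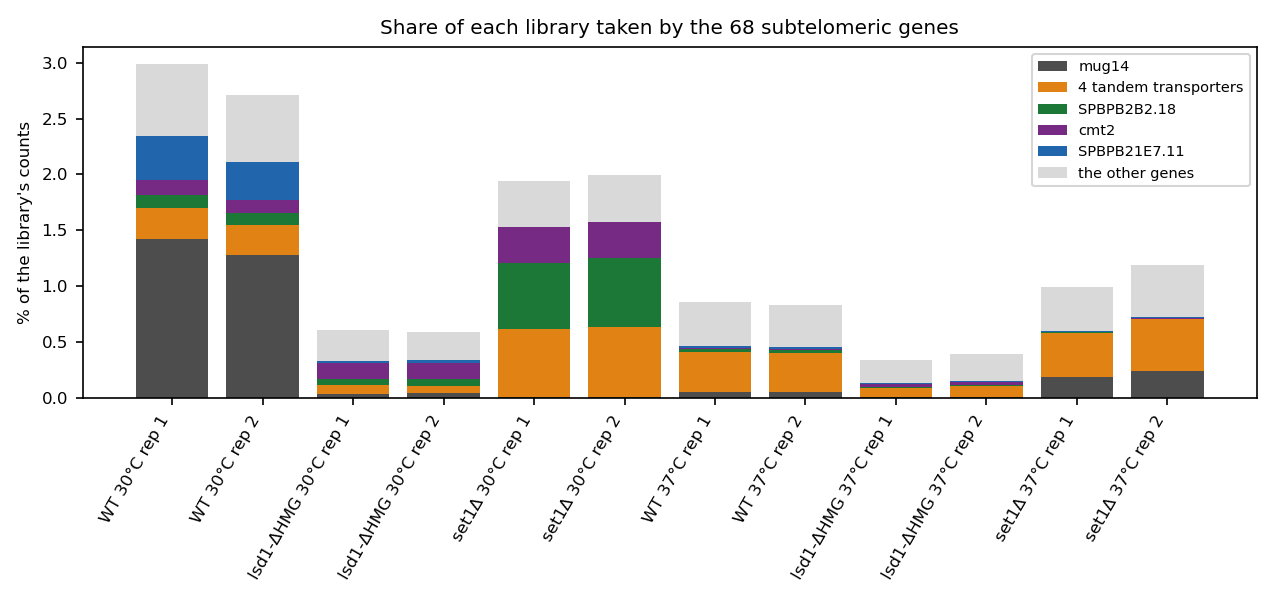
Percent of each library's counts (vertical axis) assigned to the 68 genes in the 12 libraries (horizontal axis), stacked as mug14, the 4 tandem transporters, SPBPB2B2.18, cmt2, SPBPB21E7.11 and the other 60 genes. Both WT libraries at 30°C stand highest, at 2.99% and 2.71%, with mug14 as their largest part, and the lsd1-ΔHMG libraries at 37°C are lowest.

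In lsd1-ΔHMG cells at 30°C most of the subtelomeric genes were lower than in WT, and at 37°C more were lower than higher. A gene was called when edgeR's quasi-likelihood test gave an adjusted p under 0.05 (Benjamini-Hochberg, over all features) and its level moved at least 1 log2 unit up or down. At 30°C, 42 of the 68 genes were called lower, against 18.1% of all features tested, and 14 higher, against 24.4%, so that 56 were called in all, against 42.5%. The median log2 fold change was -1.52 over the 68 genes and -0.11 over all features. At 37°C, 31 were lower (15.4% of all features) and 17 higher (25.4%), 48 in all (40.8%), with a median of -0.82 against -0.06. A fit with offsets for GC content and gene length gave 18 lower and 19 higher genes at 37°C, against 9.44% and 21.8% of all features in that fit, and a median of -0.35 against 0.13 for all features. At 30°C the same fit gave 37 lower and 13 higher, against 13.9% and 19.5%. Of the 34 genes with no copy, 21 were lower and 5 higher at 30°C, and 13 were lower and 9 higher at 37°C. The calls were shared between temperatures for 29 genes that were lower at both and 12 that were higher at both. The share of all features with calls shared in this way was not counted.

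Over the 68 genes, set1Δ cells gave a different balance at each temperature. At 30°C, 20 genes were called higher (21.1% of all features) and 17 lower (11.6%), 37 in all (32.6%), with a median log2 fold change of -0.04 against 0.22 over all features. At 37°C, 10 were higher (18.7%) and 26 lower (5.53%), 36 in all (24.2%), and the medians were -0.66 and 0.01. Both temperatures shared 4 higher and 6 lower genes, and the share of all features with such shared calls was not counted. Among the 34 genes with no copy, 8 were higher and 14 lower at 30°C, and 6 were higher and 7 lower at 37°C. Their medians were -0.39 at 30°C and -0.26 at 37°C. With offsets for GC content and gene length, the medians over the 68 were -0.06 at 30°C and -0.56 at 37°C. Over all features they were 0.22 and 0.17 in that fit.

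**Figure D2:**
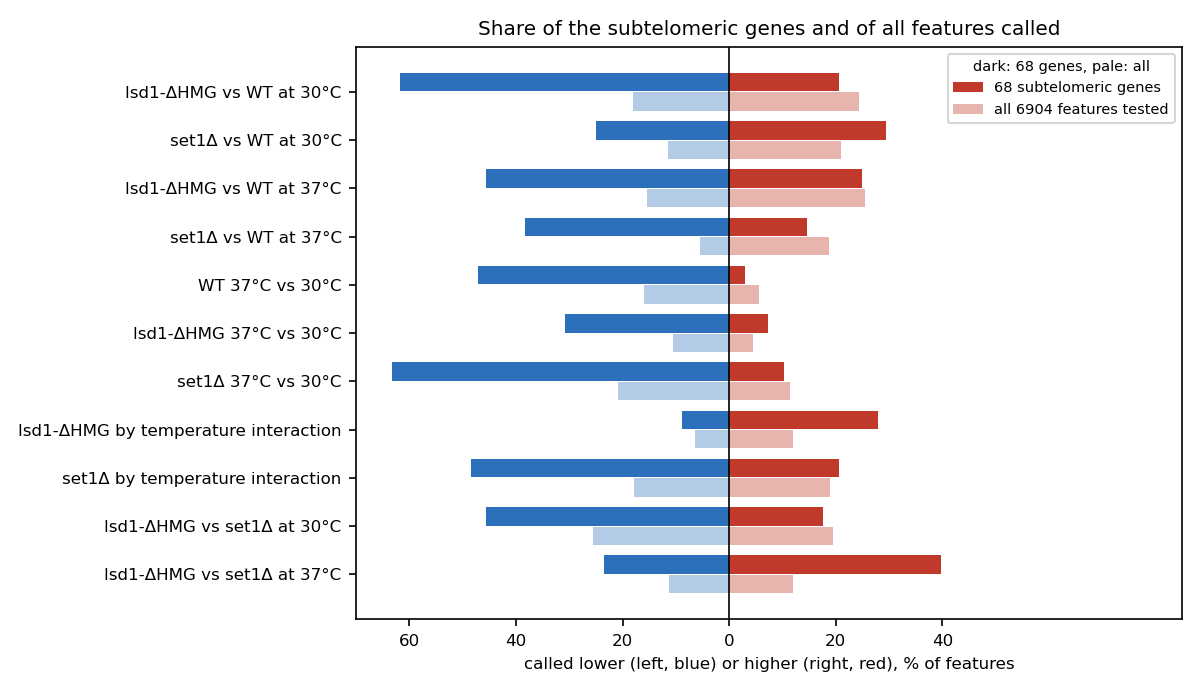
Percent of the 68 genes (dark bars) and of all 6904 features tested (pale bars) called higher (to the right, red) or lower (to the left, blue) in 11 comparisons. In lsd1-ΔHMG at 30°C, 42 of 68 genes are lower than in WT, and in set1Δ 43 of 68 are lower at 37°C than at 30°C.

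The helicase gene tlh2 at the tip of the right end was higher in both mutants. It encodes a RecQ-type DNA helicase and is known as a transcript silenced by telomeric heterochromatin. Its level was 2.38 and 2.25 CPM in WT at 30°C, 30.7 and 27.6 CPM in lsd1-ΔHMG, and 8.33 and 6.74 CPM in set1Δ. At 37°C the libraries read 0.875 and 0.531 CPM in WT, 13.1 and 15.1 CPM in lsd1-ΔHMG and 3.34 and 2.89 CPM in set1Δ. Every mutant library lay above both WT libraries of its temperature, with lsd1-ΔHMG highest. Against WT, lsd1-ΔHMG had a log2 fold change of 3.65 (SE 0.185, adjusted p = 5.62e-10, edgeR) at 30°C and 4.29 (SE 0.212, adjusted p = 2.64e-10, edgeR) at 37°C. For set1Δ the values were 1.70 (SE 0.196, adjusted p = 2.25e-06, edgeR) and 2.11 (SE 0.237, adjusted p = 2.29e-06, edgeR). The direct comparison put lsd1-ΔHMG above set1Δ by 1.95 at 30°C and 2.18 at 37°C. With offsets for GC content and length, the values were 2.09 and 2.46 in lsd1-ΔHMG, the call in set1Δ at 37°C was lost at 0.84, and so was the difference between the mutants at 30°C, at 0.84. tlh1 of chromosome I is 99.98% identical to tlh2 over 5662 bases, and tlh2 received 1.34 to 2.24 times its counts.

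Beside tlh2, the pseudogene SPBCPT2R1.07c also rose in both mutants at both temperatures. It read 1.01 and 0.488 CPM in WT at 30°C, 10.3 and 10.4 CPM in lsd1-ΔHMG and 10.5 and 9.37 CPM in set1Δ. At 37°C it read 0.772 and 0.718 CPM in WT, 12.8 and 17.02 CPM in lsd1-ΔHMG and 5.27 and 4.90 CPM in set1Δ. No mutant library overlapped WT. The log2 fold changes at 30°C were 3.78 (SE 0.253, adjusted p = 6.21e-09, edgeR) in lsd1-ΔHMG and 3.73 (SE 0.257, adjusted p = 1.26e-08, edgeR) in set1Δ, and 4.31 and 2.76 at 37°C. With offsets for GC content and length the 2 values in lsd1-ΔHMG were 2.56 and 2.76 and that in set1Δ at 37°C was 1.56. Without WT replicate 1 at 30°C the mutants had 4.40 and 4.34 at that temperature. SPBCPT2R1.10, a further pseudogene, was called higher in all 4 comparisons, at under 1 CPM in every library. Those in lsd1-ΔHMG at 30°C (1.67, 1.68 and 1.58) and in set1Δ at 37°C (2.31, 1.61 and 1.71) lost their call when WT replicate 1, WT replicate 2 or the mutant's replicate 1 of that temperature was left out. No other gene of the 68 was called higher in both mutants at both temperatures. SPBCPT2R1.07c had a copy on chromosome I at 99.94% identity and SPBCPT2R1.10 one at 99.8%.

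Other genes of the right tip did not follow tlh2. Those described next, SPBCPT2R1.05c, SPBCPT2R1.06c and SPBCPT2R1.02, also matched genes of chromosome I, at 100% over 162, 372 and 357 bases. The pseudogene SPBCPT2R1.05c was at 0.149 and 0.188 CPM in WT at 30°C, against 3.67 and 2.95 CPM in lsd1-ΔHMG and 2.05 and 1.49 CPM in set1Δ. At 37°C it read 9.16 and 9.36 CPM in WT, 9.33 and 7.55 CPM in lsd1-ΔHMG and 5.91 and 4.70 CPM in set1Δ. Only at 30°C did both mutants lie above WT, by 4.27 (SE 0.345, adjusted p = 3.98e-08, edgeR) and 3.37 (SE 0.394, adjusted p = 2.60e-06, edgeR) on the log2 scale, the first of which was 4.91 with GC and length offsets. It was the only gene of the 68 called higher at 37°C in the 3 strains, by 5.75 (SE 0.309, adjusted p = 2.58e-09, edgeR) in WT, 1.35 in lsd1-ΔHMG and 1.58 in set1Δ.

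SPBCPT2R1.06c, a pseudogene as well, read 19.3 and 19.03 CPM in WT, 22.5 and 34.4 CPM in lsd1-ΔHMG and 174 and 196 CPM in set1Δ at 30°C. At 37°C it read 4.45 and 5.15, 3.68 and 4.13, and 3.21 and 3.34 CPM in the same order. The set1Δ libraries stood far above the others at 30°C and a little below them at 37°C, with 3.27 (SE 0.164, adjusted p = 8.67e-10, edgeR) and -0.54 against WT, the latter not called. The uncharacterised gene SPBCPT2R1.02 was at 30.4 and 27.97 CPM in WT, 9.15 and 10.6 CPM in lsd1-ΔHMG and 178 and 194 CPM in set1Δ at 30°C. At 37°C it was at 10.7 and 10.8, 3.97 and 4.90, and 2.79 and 2.86 CPM. Its set1Δ libraries were the highest at 30°C and the lowest at 37°C, without overlap. The log2 fold changes of SPBCPT2R1.02 were 2.67 (SE 0.111, adjusted p = 1.20e-10, edgeR) and -1.92 (SE 0.138, adjusted p = 2.41e-08, edgeR) in set1Δ, and -1.56 and -1.28 in lsd1-ΔHMG, which became -2.20 and -1.96 with offsets for GC content and length. With the same offsets set1Δ had -2.62 at 37°C.

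At the left tip, 7 of the 13 SPBC1348 genes were lower and 5 higher in lsd1-ΔHMG at 30°C, against 18.1% and 24.4% of all features. In set1Δ 10 of 13 were lower at 37°C, with 0 higher, against 5.53% and 18.7%. For ftm6 the libraries read 61.6 and 59.3 CPM in WT, 6.59 and 6.98 CPM in lsd1-ΔHMG and 86.97 and 95.2 CPM in set1Δ at 30°C. At 37°C they read 16.1 and 16.2, 3.04 and 3.83, and 1.32 and 1.70 CPM. The groups did not overlap at either temperature, and set1Δ moved from the highest level at 30°C to the lowest at 37°C. In lsd1-ΔHMG the log2 fold change was -3.16 (SE 0.124, adjusted p = 1.01e-10, edgeR) at 30°C and -2.23 at 37°C, and offsets for GC content and length left -2.24 and -0.99, the latter short of the threshold. In set1Δ it was 0.59 at 30°C, not called, and -3.41 (SE 0.152, adjusted p = 3.23e-10, edgeR) at 37°C. Its copy ftm7 at the right end was 99.5% identical to it over 441 bases. The values of ftm7 were -2.73 and -1.55 in lsd1-ΔHMG, and 0.86 (not called) and -2.71 in set1Δ. With the offsets its called values were -1.76, -0.08 (call lost) and -2.05.

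SPBPB2B2.19c, the copy of ftm5, was at 451 and 412 CPM in WT, 199 and 174 CPM in lsd1-ΔHMG and 239.7 and 248 CPM in set1Δ at 30°C. At 37°C it was at 155 and 151, 82.1 and 91.9, and 15.4 and 19.9 CPM. WT stood highest at both temperatures and no groups overlapped. In set1Δ at 37°C its log2 fold change was -3.12 (SE 0.117, adjusted p = 1.34e-10, edgeR). In lsd1-ΔHMG at 30°C it was -1.21, which lost its call at -0.44 with offsets for GC content and length. SPBC1348.05, a transporter gene, and SPBC1348.12, annotated as a DNA-binding transcription factor, were called lower in both mutants at both temperatures, and so was the pseudogene SPBPB21E7.06, described with its neighbours. None of the 3 kept all 4 calls with offsets for GC content and length: SPBC1348.12 had -0.87 in set1Δ at 37°C and SPBC1348.05 had -0.66 in lsd1-ΔHMG at 37°C. For SPBC1348.05 the call in set1Δ at 30°C was lost without set1Δ replicate 1 at 30°C (-0.92) or at 37°C (-0.996).

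Within the left tip, 5 genes went the other way in lsd1-ΔHMG. SPBC1348.06c, SPBC1348.08c, SPBC1348.09, SPBC1348.10c and SPBC1348.11 were called higher at both temperatures, while SPBC1348.07 between them was lower at 30°C, a call that was lost with offsets for GC content and length (-1.36 against -0.47). SPBC1348.08c, a glycoprotein gene, read 2.05 and 2.63 CPM in WT, 21.04 and 17.7 CPM in lsd1-ΔHMG and 1.56 and 1.77 CPM in set1Δ at 30°C. At 37°C it read 2.42 and 2.47, 11.2 and 13.7, and 0.289 and 0.397 CPM. Its lsd1-ΔHMG libraries were the highest and its set1Δ libraries the lowest at both temperatures. Against WT, lsd1-ΔHMG had 3.05 (SE 0.184, adjusted p = 2.50e-09, edgeR) at 30°C and 2.35 (SE 0.178, adjusted p = 1.89e-08, edgeR) at 37°C on the log2 scale, and set1Δ -0.49 (not called) and -2.81 (SE 0.276, adjusted p = 5.96e-07, edgeR). In lsd1-ΔHMG at 37°C it was 1.76 with GC and length offsets.

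SPBC1348.09, a dehydrogenase gene, read 5.62 and 5.11 CPM in WT, 35.2 and 32.00 CPM in lsd1-ΔHMG and 8.33 and 9.41 CPM in set1Δ at 30°C. At 37°C it read 2.93 and 3.0, 9.46 and 9.66, and 0.482 and 0.963 CPM. Here set1Δ lay below WT at 37°C and above it at 30°C. Its values at 37°C were 1.69 (SE 0.175, adjusted p = 5.39e-07, edgeR) in lsd1-ΔHMG and -2.01 (SE 0.239, adjusted p = 4.12e-06, edgeR) in set1Δ, the latter -2.61 without set1Δ replicate 2 at 37°C. SPBC1348.06c had a copy at the right end, SPBPB2B2.15, identical over 612 bases, and both encode a protein with a Vel1p domain. The copy was also called higher in lsd1-ΔHMG, by 3.04 at 30°C and 1.56 at 37°C. SPBC1348.09 and SPBC1348.10c, a phospholipase gene, matched ayr2 and plb4 of chromosome I at 100%, and SPBC1348.08c matched pfl6 at 99.92%.

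**Figure D3:**
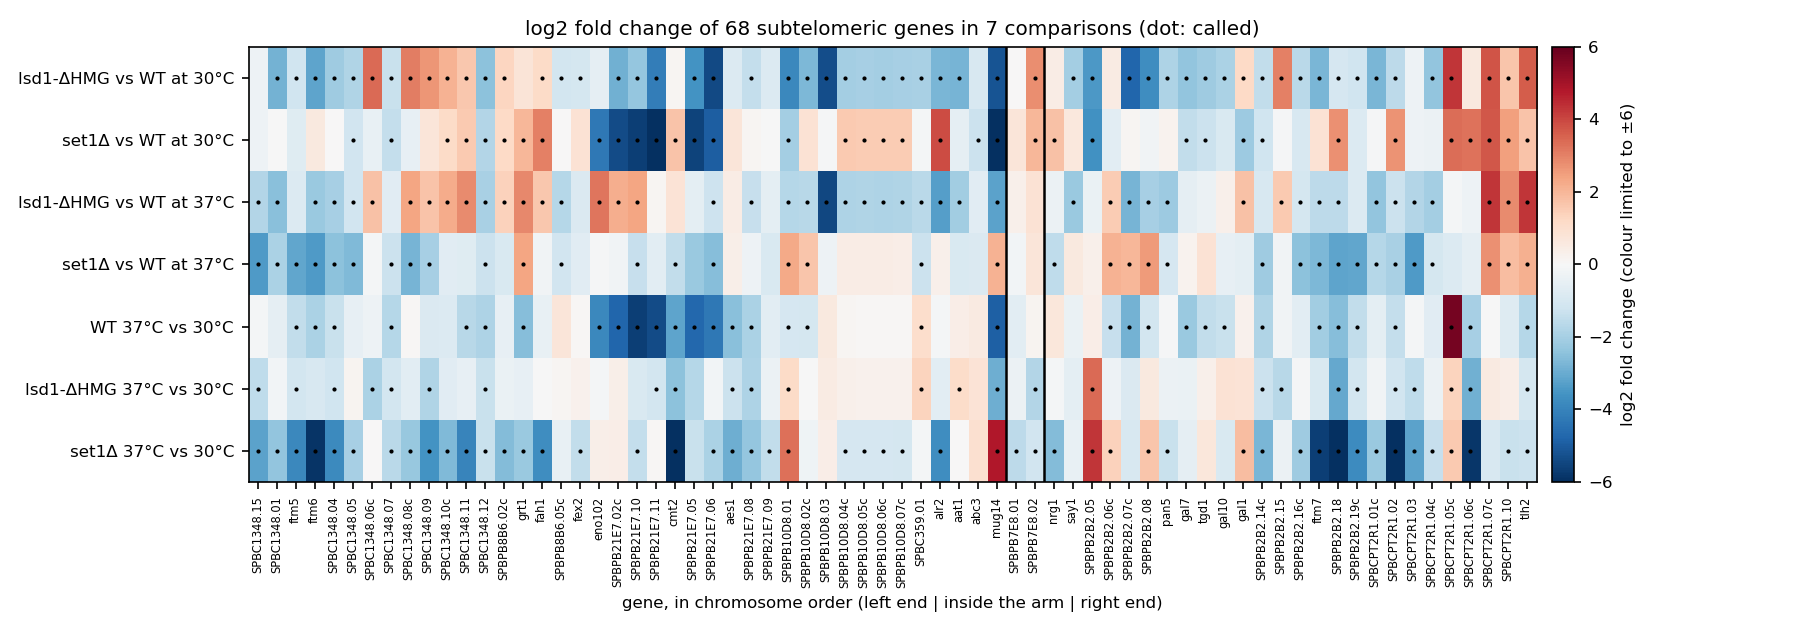
log2 fold change (colour, limited to ±6; red higher, blue lower) of the 68 genes in chromosome order (columns) in 7 comparisons (lines of the grid), with a dot where a gene was called and vertical lines between the left end, the genes inside the arm and the right end. Blue dominates the lsd1-ΔHMG comparisons with WT, with red at SPBC1348.08c to SPBC1348.11 and at tlh2.

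The SPBPB21E7 run of the left end holds 10 genes, of which 9 were lower in WT at 37°C than at 30°C, against 15.9% of all features. The enolase gene eno102, a paralog of the glycolytic enolase, read 515 and 444 CPM in WT, 339 and 326 CPM in lsd1-ΔHMG and 28.5 and 21.2 CPM in set1Δ at 30°C. At 37°C it read 32.7 and 32.8 CPM in WT, 295 and 313 CPM in lsd1-ΔHMG and 35.97 and 27.2 CPM in set1Δ. It was high in lsd1-ΔHMG at both temperatures, in WT at 30°C and in set1Δ at neither. In lsd1-ΔHMG the log2 fold change against WT was -0.53 at 30°C, short of the fold threshold, and 3.21 (SE 0.142, adjusted p = 1.89e-10, edgeR) at 37°C. In set1Δ it was -4.27 (SE 0.151, adjusted p = 7.00e-11, edgeR) at 30°C and -0.06 at 37°C (adjusted p = 0.736, edgeR).

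SPBPB21E7.11, an uncharacterised gene, was high in one condition. Its libraries read 4129 and 3525 CPM in WT, 205 and 228 CPM in lsd1-ΔHMG and 56.4 and 57.5 CPM in set1Δ at 30°C. At 37°C they read 87.5 and 96.7, 86.8 and 115, and 56.7 and 61.8 CPM. The WT libraries labelled 30°C stood alone. At 30°C the log2 fold change was -4.14 (SE 0.145, adjusted p = 6.17e-11, edgeR) in lsd1-ΔHMG and -6.07 (SE 0.160, adjusted p = 3.25e-12, edgeR) in set1Δ, and at 37°C 0.14 and -0.64, neither called. GC and length offsets gave -3.46 in lsd1-ΔHMG at 30°C.

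SPBPB21E7.10, also uncharacterised, was at 255 and 225 CPM in WT, 36.1 and 58.8 CPM in lsd1-ΔHMG and 4.81 and 4.89 CPM in set1Δ at 30°C. At 37°C it read 4.30 and 5.37 CPM in WT, 21.5 and 28.6 CPM in lsd1-ΔHMG and 1.83 and 1.81 CPM in set1Δ. The lsd1-ΔHMG libraries lay below WT at 30°C (-2.34 on the log2 scale) and above it at 37°C, by 2.38 (SE 0.227, adjusted p = 5.44e-07, edgeR). With offsets for GC content and length these were -1.47 and 3.74. In set1Δ it was -5.63 at 30°C and -1.40 at 37°C, and the latter lost its call with those offsets (-0.86) and when set1Δ replicate 1 (-1.35) or 2 (-1.39) at 37°C was left out.

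The pseudogene SPBPB21E7.06 was high in WT at 30°C, with 39.5 and 33.9 CPM, against 1.05 and 0.662 CPM in lsd1-ΔHMG and 1.25 and 1.13 CPM in set1Δ. At 37°C it read 1.72 and 2.03, 0.586 and 0.985, and 0.546 and 0.113 CPM. The 2 WT libraries at 30°C stood apart from the other 10. At 30°C the log2 fold change was -5.40 (SE 0.304, adjusted p = 2.08e-09, edgeR) in lsd1-ΔHMG and -4.94 in set1Δ, and at 37°C -1.25 and -2.54. At 37°C the call in lsd1-ΔHMG was lost with offsets for GC content and length (-0.59) and without its replicate 1 (-0.92), and the value in set1Δ was -3.94 without its replicate 1 and -1.77 without its replicate 2.

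The catechol O-methyltransferase gene cmt2 of the same run behaved otherwise. It read 1410 and 1192 CPM in WT, 1367 and 1418 CPM in lsd1-ΔHMG and 4194 and 4223 CPM in set1Δ at 30°C. At 37°C it read 144 and 148, 241 and 273, and 56.1 and 48.2 CPM. The set1Δ libraries were highest at 30°C and lowest at 37°C, with 1.69 (SE 0.114, adjusted p = 9.59e-09, edgeR) and -1.49 (SE 0.115, adjusted p = 5.12e-08, edgeR) on the log2 scale, the latter -0.93 and not called with offsets for GC content and length. In lsd1-ΔHMG it was called at neither temperature, at 0.10 and 0.81.

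All 7 genes of the SPBPB10D8 run were called lower in lsd1-ΔHMG at each temperature, against 18.1% of all features at 30°C and 15.4% at 37°C. This number counts the tandem transporters, which have the same coding sequence, as 4 genes. The 4 tandem transporters, whose shared sequence is printed above, spanned 665 to 731 CPM in WT at 30°C, 153 to 189 CPM in lsd1-ΔHMG and 1920 to 2175 CPM in set1Δ. At 37°C they spanned 718 to 776 CPM, 186 to 234 CPM and 909.8 to 1105 CPM. The strains were ordered lsd1-ΔHMG, WT, set1Δ at both temperatures without overlap. Their log2 fold changes in lsd1-ΔHMG lay between -2.05 and -2.00 at 30°C and between -1.84 and -1.82 at 37°C, with adjusted p of at most 6.94e-10 and 1.10e-09 (edgeR). In set1Δ they lay between 1.54 and 1.55 at 30°C, called for all 4, and between 0.41 and 0.44 at 37°C, called for none. With offsets for GC content and length the values in lsd1-ΔHMG at 30°C were between -1.40 and -1.17, still called, and the 4 calls at 37°C were lost, at values between -0.95 and -0.83.

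The pseudogene SPBPB10D8.03 was almost absent from lsd1-ΔHMG. It read 22.2 and 24.1 CPM in WT, 0.845 and 0.265 CPM in lsd1-ΔHMG and 21.95 and 21.9 CPM in set1Δ at 30°C. At 37°C it read 35.98 and 34.6, 0.800 and 0.794, and 25.1 and 32.4 CPM. The lsd1-ΔHMG libraries stood apart, with log2 fold changes of -5.33 (SE 0.261, adjusted p = 5.73e-10, edgeR) and -5.46 (SE 0.239, adjusted p = 1.34e-10, edgeR). Those of set1Δ were -0.08 and -0.30, with adjusted p of 0.688 and 0.128 (edgeR). This gene had no copy by the measure used. In lsd1-ΔHMG it had -4.56 and -4.49 with GC and length offsets, and -6.43 at 30°C without its replicate 1.

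SPBPB10D8.01 encodes a cysteine transporter. It read 669.7 and 584 CPM in WT, 47.9 and 37.1 CPM in lsd1-ΔHMG and 146 and 155 CPM in set1Δ at 30°C. At 37°C it read 311 and 312, 79.2 and 112, and 1341 and 1661 CPM. The set1Δ libraries lay below WT at 30°C and above it at 37°C, with -2.06 (SE 0.165, adjusted p = 1.20e-07, edgeR) and 2.27 (SE 0.165, adjusted p = 6.11e-08, edgeR) on the log2 scale. In lsd1-ΔHMG the values were -3.88 and -1.70.

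The neighbouring arylsulfatase gene SPBPB10D8.02c, whose enzyme class frees sulfate from esters, read 55.5 and 54.4 CPM in WT, 8.95 and 7.98 CPM in lsd1-ΔHMG and 96.01 and 106 CPM in set1Δ at 30°C. At 37°C it read 24.5 and 27.96, 7.52 and 8.92, and 74.9 and 91.6 CPM. The order was lsd1-ΔHMG, WT, set1Δ at both temperatures, and the log2 fold changes at 37°C were -1.67 (SE 0.132, adjusted p = 2.92e-08, edgeR) and 1.67 (SE 0.121, adjusted p = 2.71e-08, edgeR).

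Next to this run lie the genes of SPBC359. The alanine racemase gene alr2, whose product interconverts L- and D-alanine, read 19.3 and 20.9 CPM in WT, 3.23 and 2.71 CPM in lsd1-ΔHMG and 287 and 321 CPM in set1Δ at 30°C. At 37°C it read 18.7 and 18.9, 1.49 and 2.33, and 21.4 and 24.96 CPM. The set1Δ libraries were far above the rest at 30°C, and the lsd1-ΔHMG libraries were lowest at both temperatures. In set1Δ the log2 fold change was 3.92 (SE 0.133, adjusted p = 2.53e-11, edgeR) at 30°C and 0.31 at 37°C, not called, and in lsd1-ΔHMG it was -2.75 (SE 0.159, adjusted p = 1.76e-09, edgeR) and -3.30 (SE 0.165, adjusted p = 3.12e-10, edgeR), the last -2.53 with GC and length offsets. The direct comparison of lsd1-ΔHMG with set1Δ at 30°C gave -6.67 (SE 0.160, adjusted p = 3.35e-12, edgeR), the lowest of the 68 genes there, or -6.06 with these offsets.

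The amino acid permease gene SPBC359.01 read 55.3 and 56.98 CPM in WT, 16.3 and 13.2 CPM in lsd1-ΔHMG and 51.9 and 50.3 CPM in set1Δ at 30°C. At 37°C it read 118 and 112, 30.99 and 43.6, and 45.5 and 47.5 CPM. The order was lsd1-ΔHMG, set1Δ, WT at both temperatures, without overlap. It was called lower in lsd1-ΔHMG at both temperatures, with -1.92 and -1.63, and in set1Δ at 37°C, with -1.31 (SE 0.136, adjusted p = 1.26e-06, edgeR). aat1, another permease gene, was lower in lsd1-ΔHMG by log2 fold changes of -2.78 and -2.08, while abc3, annotated as a multidrug resistance protein, was called only in set1Δ at 30°C with -1.27. Of the 11 genes annotated as transporters or permeases, 9 were called lower and 1 higher in lsd1-ΔHMG at each temperature, against 18.1% and 24.4% of all features at 30°C and 15.4% and 25.4% at 37°C. Of the same genes, 6 in set1Δ were higher and 2 lower at 30°C (21.1% and 11.6% of all features), and 1 was higher and 4 lower at 37°C (18.7% and 5.53%). Each of the 4 tandem copies is counted as a gene of its own in these numbers. SPBC1348.05 and SPBPB2B2.16c, 99.93% identical over 1458 bases, are likewise counted apart. With offsets for GC content and length, the calls lost in lsd1-ΔHMG at 37°C included those of the 4 tandem copies and of SPBC1348.05.

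The innermost gene of the left end is mug14, whose value in set1Δ at 30°C was the lowest of the 68 in any comparison with WT. Its libraries read 14875 and 13233 CPM in WT, 366 and 408 CPM in lsd1-ΔHMG and 73.7 and 72.3 CPM in set1Δ at 30°C. At 37°C they read 476 and 474 CPM in WT, 44.3 and 57.98 CPM in lsd1-ΔHMG and 1815 and 2218 CPM in set1Δ. The 2 WT libraries at 30°C exceeded the other 10, and set1Δ was the lowest strain at 30°C and the highest at 37°C. At 30°C the log2 fold change was -5.18 (SE 0.165, adjusted p = 2.49e-11, edgeR) in lsd1-ΔHMG and -7.59 (SE 0.184, adjusted p = 1.53e-12, edgeR) in set1Δ. At 37°C it was -3.22 (SE 0.151, adjusted p = 1.69e-10, edgeR) and 2.08 (SE 0.143, adjusted p = 1.56e-08, edgeR). With GC and length offsets lsd1-ΔHMG had -4.47 and -2.46. The direct comparison put lsd1-ΔHMG above set1Δ by 2.41 at 30°C and below it at 37°C, with -5.30.

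**Figure D4:**
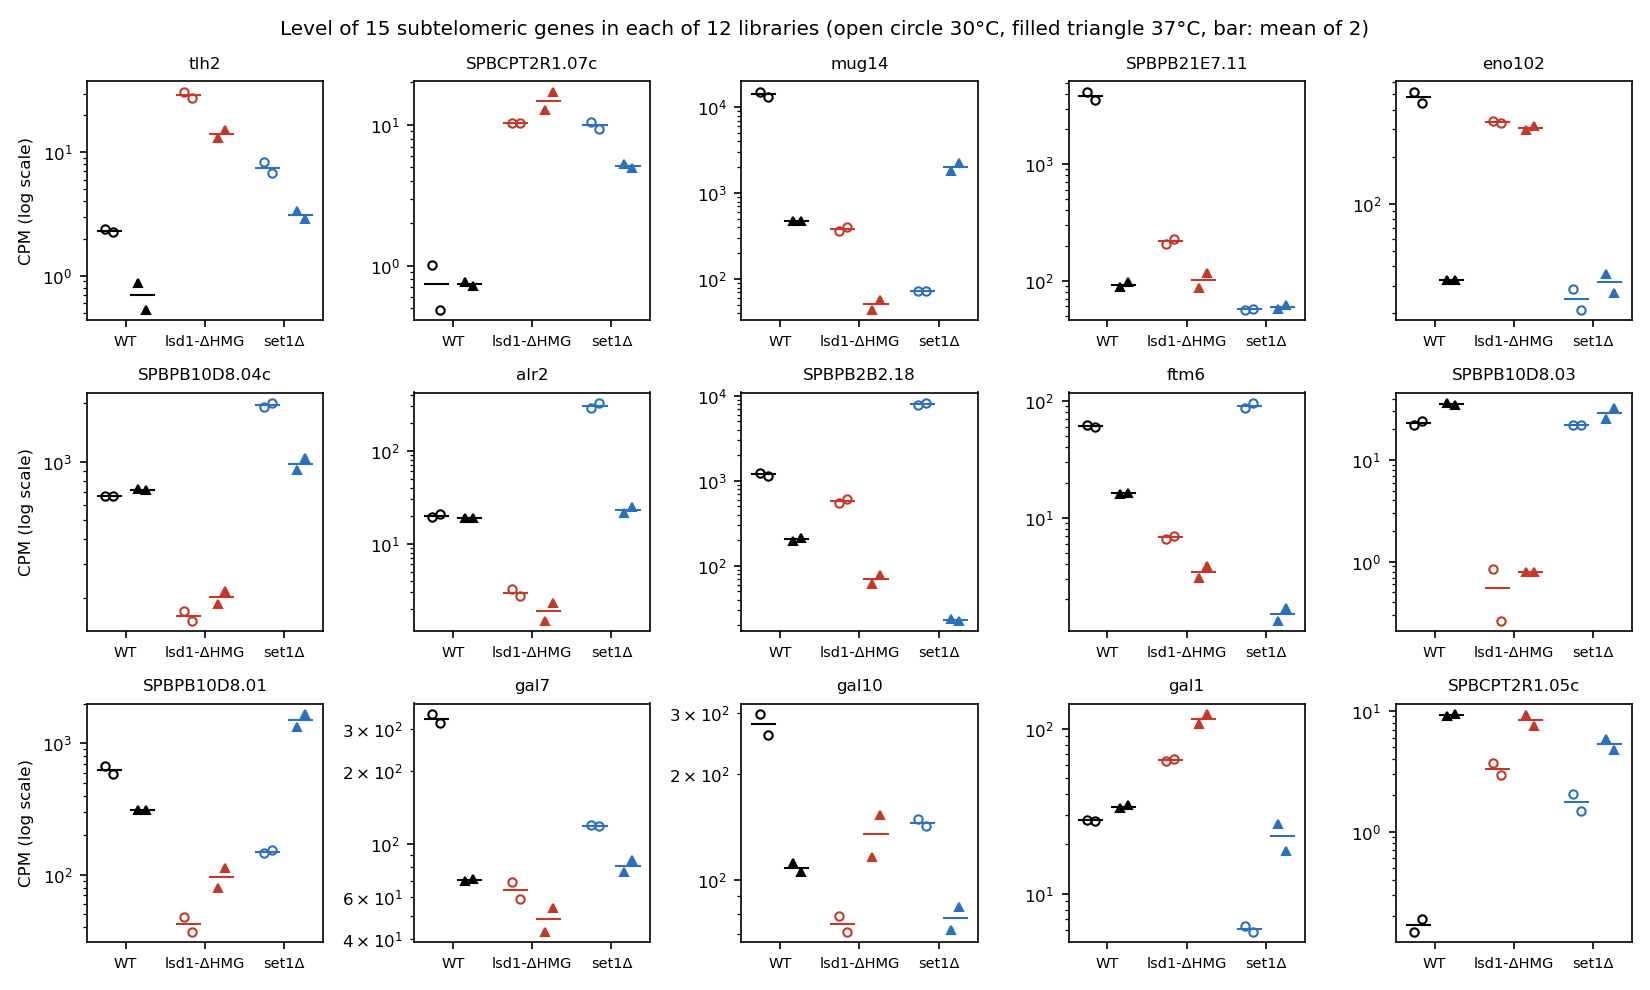
CPM on a log axis of 15 of the genes in each of the 12 libraries, by strain (horizontal axis), with open circles for 30°C, filled triangles for 37°C and a bar at the mean of 2 libraries. tlh2 is lowest in WT, the tandem transporter SPBPB10D8.04c is lowest in lsd1-ΔHMG, and mug14 and SPBPB21E7.11 are highest in WT at 30°C.

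At the right end, gal7, gal10 and gal1 belong to the pathway that turns galactose into a glucose phosphate: gal1 encodes the galactokinase, gal7 the uridylyltransferase and gal10 the epimerase. They did not move as a unit. The gal7 libraries read 345 and 318 CPM in WT, 68.9 and 58.8 CPM in lsd1-ΔHMG and 119 and 119 CPM in set1Δ at 30°C, and 69.5 and 71.2, 43.01 and 53.96, and 76.4 and 85.1 CPM at 37°C. WT stood above both mutants at 30°C only. At 30°C the log2 fold changes were -2.37 (SE 0.109, adjusted p = 3.53e-10, edgeR) in lsd1-ΔHMG and -1.48 (SE 0.106, adjusted p = 2.44e-08, edgeR) in set1Δ, and at 37°C -0.54 and 0.20, neither called. GC and length offsets made the first -1.73.

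For gal10 the libraries read 297 and 259 CPM in WT, 78.98 and 71.4 CPM in lsd1-ΔHMG and 149 and 142 CPM in set1Δ at 30°C, and 112 and 105, 117 and 153, and 72.3 and 84.1 CPM at 37°C. WT was highest at 30°C and lsd1-ΔHMG at 37°C. Against WT it was called only in lsd1-ΔHMG at 30°C, with -1.89 (SE 0.123, adjusted p = 7.51e-09, edgeR), while its set1Δ value there, -0.93, missed the fold threshold. For gal1 the libraries read 27.8 and 27.7 CPM in WT, 63.9 and 65.2 CPM in lsd1-ΔHMG and 6.32 and 5.88 CPM in set1Δ at 30°C, and 33.1 and 34.3, 107 and 122, and 26.4 and 18.2 CPM at 37°C. The lsd1-ΔHMG libraries were highest and the set1Δ libraries lowest at both temperatures. At 30°C gal1 had 1.22 (SE 0.138, adjusted p = 1.61e-06, edgeR) in lsd1-ΔHMG and -2.18 (SE 0.164, adjusted p = 3.71e-08, edgeR) in set1Δ, and at 37°C 1.76 and -0.60, of which the first was called. tgd1, which lies between gal7 and gal10 and encodes a nucleotide-sugar dehydratase, was lower in both mutants at 30°C, with -2.12 and -1.31, and called in neither at 37°C.

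Before these genes lie SPBPB2B2.07c and SPBPB2B2.08, both uncharacterised, which were among the 4 genes with the lowest values of lsd1-ΔHMG against set1Δ at 37°C. Over 468 bases SPBPB2B2.07c matched SPBC1348.07 and SPAC977.06 of chromosome I at 99.8% and SPBPB2B2.14c at 99.4%. Its counts were between 0.66 and 38.8 times those of SPBC1348.07, and reads of the shared bases have no unique origin. SPBPB2B2.07c read 140.4 and 122 CPM in WT, 4.40 and 5.20 CPM in lsd1-ΔHMG and 139 and 150.2 CPM in set1Δ at 30°C, and 18.02 and 18.6, 2.64 and 2.60, and 62.4 and 84.7 CPM at 37°C. SPBPB2B2.08 read 249 and 219, 19.2 and 16.4, and 199.99 and 200.1 CPM at 30°C and 101 and 114, 20.8 and 32.8, and 583 and 699 CPM at 37°C in the same order. In both genes lsd1-ΔHMG was lowest at either temperature and set1Δ highest at 37°C. At 37°C SPBPB2B2.07c had -2.80 (SE 0.169, adjusted p = 2.45e-09, edgeR) in lsd1-ΔHMG, or -1.70 with offsets for GC content and length, and 2.01 (SE 0.134, adjusted p = 1.60e-08, edgeR) in set1Δ, or 2.60 with them. SPBPB2B2.08 had -2.01 (SE 0.176, adjusted p = 4.37e-07, edgeR) and 2.58 (SE 0.173, adjusted p = 7.63e-08, edgeR). The mutants differed by -4.81 and -4.58 in the direct comparison.

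SPBPB2B2.05, a gene of the class I glutamine amidotransferase family, read 65.1 and 62.4 CPM in WT, 6.64 and 5.16 CPM in lsd1-ΔHMG and 5.17 and 5.20 CPM in set1Δ at 30°C. At 37°C it read 83.4 and 82.6, 54.2 and 71.97, and 96.03 and 107 CPM. Both mutants were far below WT at 30°C, with -3.43 (SE 0.151, adjusted p = 2.52e-10, edgeR) and -3.62 (SE 0.160, adjusted p = 2.70e-10, edgeR), against -0.40 and 0.29 at 37°C, neither called. The first became -2.71 with GC and length offsets.

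SPBPB2B2.18, farther towards the telomere, matched SPAC977.18 of chromosome I at 98.1% over 795 bases. Among the 68 genes it had the lowest value between temperatures, in set1Δ. Its libraries read 1244 and 1145 CPM in WT, 553 and 619 CPM in lsd1-ΔHMG and 7735 and 8161 CPM in set1Δ at 30°C, and 198 and 213, 61.9 and 78.6, and 23.6 and 22.7 CPM at 37°C. The set1Δ libraries went from the highest to the lowest, with 2.73 (SE 0.127, adjusted p = 3.09e-10, edgeR) and -3.15 (SE 0.132, adjusted p = 1.99e-10, edgeR) against WT. In lsd1-ΔHMG the values were -1.03 and -1.55, but -0.15 and -0.36, not called, with offsets for GC content and length. The value at 30°C was also -0.93 and short of the threshold when only the libraries compared were fitted. It was so in 6 of the 12 fits that left out a library: WT replicate 1 at 30°C (-0.97) or 37°C (-0.93), lsd1-ΔHMG replicate 1 at 30°C (-0.95), and set1Δ replicate 1 or 2 at 30°C or replicate 1 at 37°C (each -0.88). nrg1, an amino acid permease gene at the inner border of the right end, also changed side in set1Δ, with 1.74 at 30°C and -1.53 at 37°C.

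The SPBPB8B6 genes of the left end include a urea transporter, an acetamidase and an L-asparaginase, which act on nitrogen compounds. grt1, a transcription factor gene, read 3.91 and 4.02 CPM in WT, 6.44 and 7.35 CPM in lsd1-ΔHMG and 15.4 and 16.7 CPM in set1Δ at 30°C, and 0.566 and 0.780, 5.09 and 4.65, and 3.95 and 2.98 CPM at 37°C. All mutant libraries exceeded WT. At 37°C grt1 had 2.86 (SE 0.222, adjusted p = 2.40e-08, edgeR) in lsd1-ΔHMG and 2.37 (SE 0.230, adjusted p = 5.26e-07, edgeR) in set1Δ, and at 30°C 2.01 in set1Δ and 0.80 in lsd1-ΔHMG, which missed the fold threshold. fah1, the acetamidase gene, was higher in lsd1-ΔHMG by 1.16 and 1.61 and in set1Δ at 30°C by 3.04. Its call in lsd1-ΔHMG at 30°C was lost with TMM factors of protein-coding genes (0.98) and without replicate 2 of that strain (0.87). SPBPB8B6.05c, the asparaginase gene whose sequence is given above, was lower in lsd1-ΔHMG by log2 fold changes of -1.09 and -1.73 and in set1Δ at 37°C by -1.13. At 30°C this call was lost when only the libraries compared were fitted (-0.99) and without WT replicate 1 at 37°C (-0.99), set1Δ replicate 1 or 2 at 30°C or set1Δ replicate 1 at 37°C (each -0.94). Inside the arm, SPBPB7E8.02 was called higher at 30°C in lsd1-ΔHMG (2.78, or 1.58 with GC and length offsets) and in set1Δ (1.99). SPBPB7E8.01, aes1 and SPBPB21E7.09 had no call in the 4 comparisons with WT.

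Compared with each other, the mutants differed at most of these genes. At 30°C, 31 of 68 were lower and 12 higher in lsd1-ΔHMG than in set1Δ, against 25.5% and 19.4% of all features, or 43 in all against 44.9%. At 37°C 27 were higher (12%) and 16 lower (11.4%), 43 in all (23.4%), and the median moved from -0.79 to 0.55. Without the copied genes 34 remained, of which 7 were higher and 15 lower at 30°C, with a median of -0.85. At 37°C 10 of the 34 were higher and 11 lower, with a median of 0.11. Calls in opposite directions against WT were found for 8 genes at each temperature. At 30°C these were gal1, higher in lsd1-ΔHMG and lower in set1Δ, and the 4 tandem transporters, alr2, SPBPB2B2.18 and SPBCPT2R1.02 with the reverse. At 37°C they were SPBC1348.08c, SPBC1348.09 and SPBPB21E7.10, higher in lsd1-ΔHMG, and SPBPB10D8.01, SPBPB10D8.02c, mug14, SPBPB2B2.07c and SPBPB2B2.08, higher in set1Δ. Both mutants were compared with the same WT libraries, and 14 genes at 30°C and 17 at 37°C were called lower in both. The shares of all features with opposite calls, or with lower calls in both mutants, were not counted. The 4 tandem transporters have the same coding sequence and count here as 4 genes.

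With temperature, more of the genes were lower than higher at 37°C in each strain. In WT, 32 were lower (15.9% of all features) and 2 higher (5.55%), 34 in all (21.5%). In lsd1-ΔHMG 21 were lower (10.5%) and 5 higher (4.48%), 26 in all (14.9%), and in set1Δ 43 were lower (20.9%) and 7 higher (11.4%), 50 in all (32.3%). The median log2 fold changes were -0.80, -0.38 and -1.37, against -0.04, 0.05 and 0.03 over all features. When only the 34 genes with no copy were counted, 20 were lower and 1 higher in WT. In lsd1-ΔHMG 7 of the 34 were lower and 4 higher, and in set1Δ 15 were lower and 6 higher. The medians of the 34 were -1.24, -0.33 and -0.73. For lsd1-ΔHMG, the fit with offsets for GC content and length gave 13 lower and 4 higher genes, against 8.71% and 4.26% of all features in that fit. In the fit without offsets 3 were higher without its replicate 2 at 37°C.

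There were 13 genes lower at 37°C in the 3 strains: ftm5, SPBC1348.04, SPBC1348.07, SPBC1348.12, cmt2, aes1, SPBPB21E7.08, SPBPB2B2.14c, SPBPB2B2.18, SPBPB2B2.19c, SPBCPT2R1.02, SPBCPT2R1.06c and tlh2. The share of all features lower in the 3 strains was not counted. With offsets for GC content and length 6 of the 13 (SPBC1348.12, cmt2, aes1, SPBPB21E7.08, SPBPB2B2.18 and SPBCPT2R1.06c) kept the 3 calls, and the other 7 lost that in lsd1-ΔHMG. Among the 13, SPBPB2B2.18 had -8.42 (SE 0.165, adjusted p = 1.42e-13, edgeR) in set1Δ, or -7.78 with GC and length offsets, cmt2 -6.33 (SE 0.140, adjusted p = 3.54e-13, edgeR) and SPBCPT2R1.02 -6.04 (SE 0.138, adjusted p = 4.77e-13, edgeR). The same genes fell in lsd1-ΔHMG by 3.06, 2.44 and 1.15 on the log2 scale, the last of which was not called with offsets for GC content and length (-0.68). tlh2 fell by 1.69 in WT, 1.05 in lsd1-ΔHMG and 1.28 in set1Δ. In lsd1-ΔHMG its value was short of the threshold with those offsets (-0.93) and without that strain's replicate 1 at 30°C (-0.97) or at 37°C (-0.95).

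Fewer genes rose at 37°C than fell in each strain. In set1Δ mug14 had 4.79 (SE 0.162, adjusted p = 1.35e-11, edgeR), SPBPB2B2.05 4.29 (SE 0.160, adjusted p = 3.61e-11, edgeR) and SPBPB10D8.01 3.32 (SE 0.173, adjusted p = 1.52e-09, edgeR). In lsd1-ΔHMG SPBPB2B2.05 had 3.41 (SE 0.151, adjusted p = 1.72e-09, edgeR) and SPBC359.01 1.33. In WT the 2 that rose were SPBCPT2R1.05c and SPBC359.01, the latter by 1.04, which was 0.84 and not called with offsets for GC content and length. Large falls in WT were those of SPBPB21E7.10, with -5.64 (SE 0.238, adjusted p = 1.11e-09, edgeR), SPBPB21E7.11, with -5.38 (SE 0.154, adjusted p = 1.68e-11, edgeR), and mug14, with -4.89 (SE 0.162, adjusted p = 3.16e-11, edgeR). These 3 genes stood high in the WT libraries labelled 30°C, in which hsp16 was also high, and the part of those libraries' state in the difference was not tested.

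Whether a mutant's difference from WT itself changed with temperature was tested as an interaction. In lsd1-ΔHMG 19 genes had a higher and 6 a lower value at 37°C than at 30°C, against 12% and 6.42% of all features, or 25 in all against 18.5%. In set1Δ 14 were higher and 33 lower, against 18.9% and 17.9%, or 47 in all against 36.8%. The medians over the 68 genes were 0.39 and -0.96, against 0.13 and 0.04 over all features. Of the 34 genes with no copy, 17 were higher and 1 lower in lsd1-ΔHMG, and 13 were higher and 9 lower in set1Δ. The medians of these 34 were 1.04 in lsd1-ΔHMG and 0.44 in set1Δ, the latter opposite in sign to that over the 68.

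A list of 20 genes for telomere proteins and heterochromatin factors was looked up beside these results, since their products act on subtelomeres. In lsd1-ΔHMG at 30°C, bqt4, sgo2, clr4, clr1 and clr3 were called higher and taz1 and chp2 lower, 25% and 10% of the list against 24.4% and 18.1% of all features. At 37°C 8 of 20 were higher (ccq1, bqt4, sgo2, clr4, clr1, clr2, clr3 and mit1) and chp2 lower, 40% and 5% against 25.4% and 15.4%. In set1Δ poz1 and epe1 were higher at 30°C (21.1% of all features) and clr3 at 37°C (18.7%), with none lower (11.6% and 5.53%). The list's median log2 fold change was 0.09 and 0.19 in lsd1-ΔHMG and 0.14 and -0.01 in set1Δ at 30°C and 37°C. The part of these genes in the levels of the subtelomeric genes was not tested.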

How the data were processed

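The values are expected counts that the authors deposited: reads were trimmed with Trimmomatic 0.39, aligned with STAR to ASM294v2 and assigned to genes with featureCounts, by fraction and without normalization. Between 73.7% and 83.6% of a library's values were not whole, and all were rounded. Of 34 value columns, 12 were used and 22 were not.

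Totals ran from 27642330 to 34843663 counts a library, and 2 libraries a condition limit precision. All 12 libraries were fitted together with R 4.3.3 and edgeR 4.0.16 (TMM, filterByExpr by condition, robust quasi-likelihood, Benjamini-Hochberg over 6904 features) in 11 comparisons. The study fitted limma-voom, used here as an alternative (limma 3.58.1), as was DESeq2 1.42.0. Identifiers of 6846 features (94.2%) matched the RefSeq annotation of ASM294v3, used for names, order, GC content and sequence, and no coordinates are given because the builds differ. Copies were found with blastn 2.17.0. Tables and plots were made with Python 3.11.15, pandas 2.3.3, numpy 2.4.6 and matplotlib 3.10.9. Other alternatives were RLE factors, TMM factors of protein-coding genes, offsets for GC content and gene length, no filter, only the libraries compared, a replicate block and leaving out each library.

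Values in every library are given for tlh2, gal7, gal10, gal1, eno102, ftm6 and the tandem transporters, for the 3 highest and 3 lowest called genes of each comparison with WT or between temperatures (mean of at least 50 counts, no overlap), and for genes called in opposite directions in the mutants. Other genes named were chosen after their values were seen. The genes and lists were chosen with earlier results of these data known.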

Additional observations from a re-analysis of the deposited data

Results flagged for a closer look

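The difference between lsd1-ΔHMG and WT itself differed between 30°C and 37°C in 25 of the 68 genes, and that between set1Δ and WT in 47, by the interaction test in edgeR's quasi-likelihood fit. The tests use the WT libraries of both labels. In those labelled 30°C hsp16 was high, and the part of this was not tested. In lsd1-ΔHMG, 2 genes had called differences from WT of opposite sign, SPBPB21E7.02c and SPBPB21E7.10. These differences from WT changed by 5.09 and 4.72 on the log2 scale from 30°C to 37°C. Both genes were lower than WT at 30°C and higher at 37°C. SPBPB21E7.02c read 82.0 and 76.3 CPM in WT and 9.94 and 11.4 CPM in lsd1-ΔHMG at 30°C. At 37°C it read 3.19 and 2.68 CPM in WT and 11.5 and 15.7 CPM in lsd1-ΔHMG, so that WT moved more than the mutant. In set1Δ, mug14 (9.67) and SPBPB10D8.01 (4.33) went from lower to higher. From higher to lower went cmt2 (-3.18), nrg1 (-3.26), SPBPB2B2.18 (-5.88) and SPBCPT2R1.02 (-4.60).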

How the results depend on the processing

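Under the alternatives run, no named gene changed direction in a comparison where it was called. Offsets for GC content and gene length moved the counts most: 18 genes were lower in lsd1-ΔHMG at 37°C against WT instead of 31, 1 gene was higher in WT at 37°C against 30°C instead of 2, and in lsd1-ΔHMG at 37°C against 30°C 17 were called and 13 lower instead of 26 and 21. They also shifted the median of all features, from -0.11 to 0.05 in lsd1-ΔHMG at 30°C and from 0.01 to 0.17 in set1Δ at 37°C. The cause was not tested. The other counts stayed within 1.5 times their value in all fits that kept every library. With the replicate number as a block the counts were the same, such as 14 higher and 42 lower in lsd1-ΔHMG at 30°C. Whether libraries with the same number were paired is not given in the sources used here. Same-numbered libraries correlated between -0.177 and 0.352 in their deviations from the condition means, which neither shows nor excludes a pairing.

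Leaving out each library in turn gave 3 to 6 higher genes in lsd1-ΔHMG at 37°C against 30°C, the lowest without its replicate 2 at 37°C, and kept the other counts within 1.5 times. A condition with 1 library left was assumed to vary like the others. How copies and strand were counted, and the state of the WT libraries labelled 30°C, limit these results.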
